A study of Mus musculus with 7 samples.

Results

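The genes described are 10 cyclic nucleotide phosphodiesterases of the mouse, Pde1a, Pde1b, Pde1c, Pde2a, Pde3a, Pde3b, Pde4a, Pde4b, Pde4d and Pde5a, measured in the mammary gland. Their probes were chosen by the gene name that the scanner files give, which found 35 of the 56605 probes on the array. Glands came from nulliparous adult FVB mice of 20 to 25 weeks at diestrus, 3 wild-type animals and 4 PRA transgenic animals, with 1 array for each animal. PRA transgenic mice are bigenic. They carry an extra gene for the A form of the progesterone receptor, under GAL-4 binding sites, together with a GAL-4 transactivator driven by a cytomegalovirus promoter, so no promoter particular to the mammary epithelium drives it. A single abdominal gland was taken after its lymph nodes had been cut out, and the whole gland was extracted, so that fewer cells of a type and less RNA per cell cannot be told apart.

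Phosphodiesterases hydrolyze cAMP and cGMP, the second messengers made by adenylyl and guanylyl cyclases, and so end the signal that these messengers carry to protein kinases A and G, to Epac and to cyclic nucleotide-gated channels. Families differ in substrate and in control. The Pde1 enzymes are switched on by calcium and calmodulin and cleave both messengers, Pde2a cleaves both and is stimulated by cGMP, the Pde3 enzymes cleave cAMP and are inhibited by cGMP, the Pde4 enzymes are specific for cAMP, and Pde5a is specific for cGMP. In adipocytes, which fill much of the mouse mammary fat pad, Pde3b is the enzyme through which insulin lowers cAMP and restrains lipolysis.

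Each array held the gland RNA in Cy5 and Universal Mouse Reference RNA, a pool from mouse cell lines that was the same on all arrays, in Cy3. No array had the dyes swapped. The value for a probe is the log2 ratio of Cy5 to Cy3 after the background subtraction and dye normalization of the scanner software, and 0 means that the gland and the reference gave equal signals. Testing was limited to probes that were well above background in Cy5 in all glands of a genotype, wild-type or PRA transgenic, which left 34284 probes of all genes and 22 of the 35 phosphodiesterase probes. Each of the 10 genes had at least 1 tested probe. The brightest tested probe in Cy5 stands for a gene where 1 probe is meant. Saturated spots were not found, and precision is limited by how many arrays there are. Cy5 was well above background for 62.7% to 66.2% of all probes on the wild-type arrays and for 56.6% to 60.2% on the PRA transgenic arrays, and Cy3, the same RNA throughout, for 53.2% to 54.0% and 47.2% to 50.6%. The arrays shared 1 slide, with wild-type glands in row 1 and PRA transgenic glands in row 2, and genotype and slide row cannot be told apart. Marker lists of other cell types also set arrays apart. The mean log2 ratio of the skeletal muscle markers, of which 12 of 14 were tested, was 1.89 and 2.78 in wild-type replicates 1 and 3 and 2.96 in PRA transgenic replicate 4, and -0.85 to -0.52 on the other arrays. T cell markers, of which 11 of 12 were tested, averaged 1.93 in wild-type replicate 1 and -0.61 to 0.06 elsewhere. White adipocyte markers were high on every array, from 5.34 to 6.06.

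No phosphodiesterase probe passed the test between the genotypes after adjustment over all probes. The 22 tested probes had adjusted p-values from 0.433 to 0.998 (limma with Benjamini-Hochberg adjustment), and 0 of them passed an adjusted p under 0.05, against 0.0117% of all probes tested. At an unadjusted p under 0.05 there were 3, in Pde3a, Pde4d and Pde5a, where 9.02% of all probes passed. With a change of at least 1.5-fold added, 1 probe of Pde5a was higher, against 1.94% of all probes, and 1 probe of Pde3a was lower, against 2.58%. The genotypes did not overlap for 0 probes in the higher direction, where the share over all probes was 5.41%, and for 2 in the lower direction, 1 each of Pde3a and Pde3b, where it was 4.52%. The Pde3b probe had passed the filter through the wild-type glands alone, so a lower value was favored by its selection. Log2 fold changes were positive for 11 probes and negative for 11, with a median of 0.00, and 54.2% of all probes tested were positive with a median of 0.02. The median SD within a genotype was 0.35 for the phosphodiesterase probes and 0.27 for all probes.

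**Figure D1:**
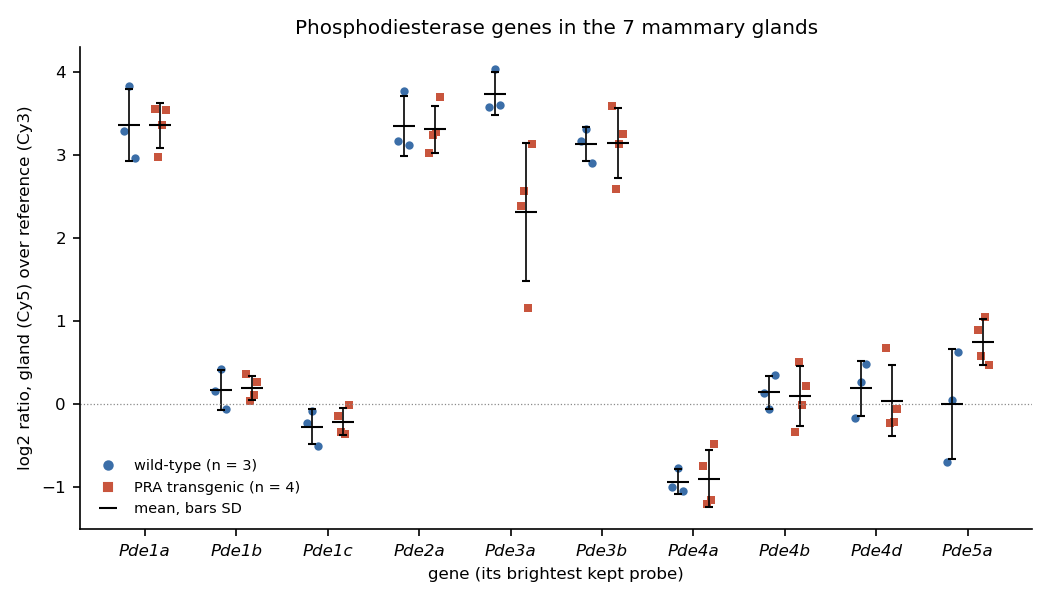
Log2 ratio of gland (Cy5) to reference (Cy3) for the brightest tested probe of each gene, 1 point per animal, with the mean and SD for 3 wild-type and 4 PRA transgenic glands. The genotypes are apart for Pde3a, where the wild-type glands lie between 3.57 and 4.03 and the PRA transgenic glands between 1.15 and 3.13, and overlap for the other genes.

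The tested probes are described here by how well they were measured. Both channels were well above background on all 7 arrays for 15 of the 22 probes, and these had log2 fold changes from -0.57 to 0.75 with a median of 0.02, 2 of them at an unadjusted p under 0.05. The other 7 probes had a channel that was dim on at least 1 array. Their log2 fold changes ran from -1.43 to 0.26 with a median of -0.33, and 1 had an unadjusted p under 0.05. Of these 7, 3 had passed the filter through the wild-type glands alone, 1 each of Pde3b, Pde4a and Pde4d. Of the 13 probes that were not tested, 7 had a Cy5 signal above background on no array. For these 7, each channel scaled to its array's 75th percentile, Cy5 was 0.28 to 1.11 higher and Cy3 0.60 to 0.86 higher on the PRA transgenic arrays on the log2 scale. The lowest signals that the arrays report were therefore higher on the PRA transgenic arrays in both channels, the reference included.

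**Figure D2:**
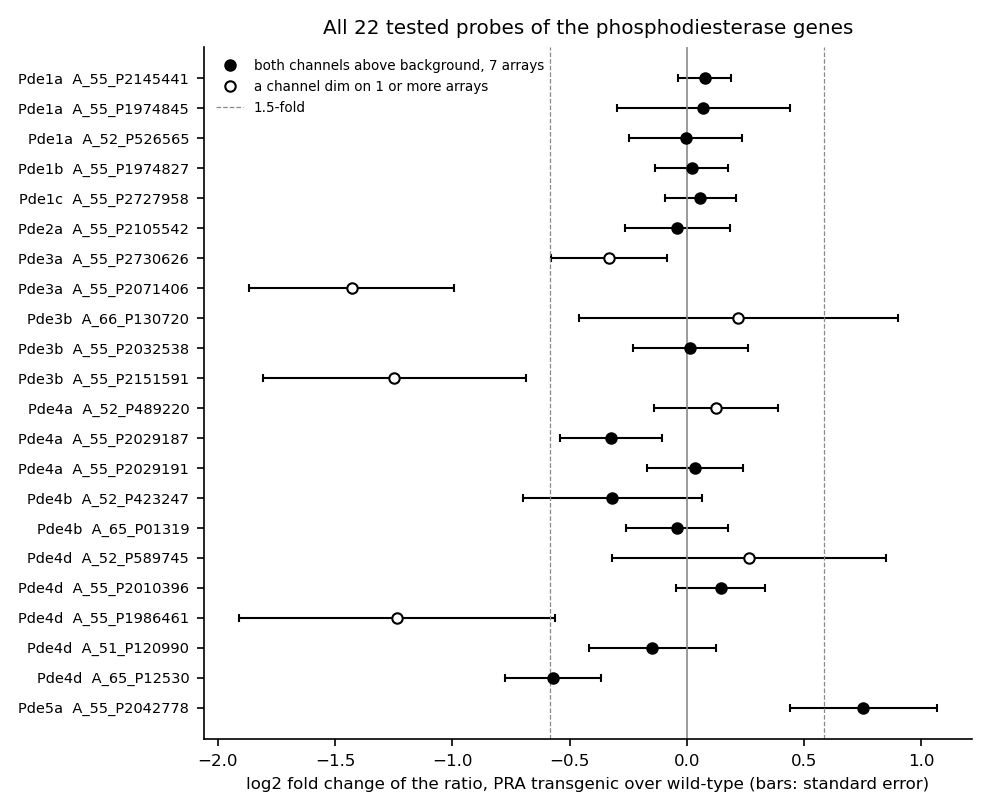
Log2 fold change of the gland-to-reference ratio, PRA transgenic over wild-type, with its standard error for each of the 22 tested probes, filled where both channels were well above background on all 7 arrays. The 3 probes below -1 are all open symbols, of Pde3a, Pde3b and Pde4d, and the filled symbols stay between -0.57 and 0.75.

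Among the calmodulin-dependent enzymes, Pde1a was about 10.2-fold above the reference in wild-type glands by its brightest probe (A_52_P526565, chromosome 2 of mm9, 79674656 to 79674715, transcript NM_016744). The log2 ratio was 3.29, 3.82 and 2.95 in wild-type replicates 1 to 3 and 3.55, 2.97, 3.36 and 3.53 in PRA transgenic replicates 1 to 4. The genotypes covered the same range, and the log2 fold change was -0.01 (standard error 0.24). A probe nearer the start of the gene, A_55_P1974845, gave 0.07 (standard error 0.37). Probe A_55_P2145441 is drawn from the transcript ENSMUST00000125887, and its gland and reference signals were nearly equal on each array, with log2 ratios from -0.05 to 0.11 in wild-type and from 0.00 to 0.18 in PRA transgenic glands. Pde1b had a single probe (A_55_P1974827, chromosome 15, 103360424 to 103360483). Its log2 ratio was 0.15, 0.41 and -0.07 in wild-type and 0.36, 0.03, 0.10 and 0.26 in PRA transgenic glands. These overlap, and the log2 fold change was 0.02 (standard error 0.16).

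The only tested probe of Pde1c (A_55_P2727958, from the cDNA AK017183) is of low sequence complexity, and which transcripts it binds was not tested. This probe had log2 ratios of -0.23, -0.09 and -0.51 in wild-type and -0.15, -0.34, -0.37 and -0.02 in PRA transgenic glands. Its log2 fold change was 0.06 (standard error 0.15), and both its channels were bright on all 7 arrays.

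The 3 probes from Pde1c RefSeq transcripts were not tested because Cy5 was dim. For A_52_P108243 and A_52_P208222 it was well above background on no array. For A_55_P1974830 (transcript NM_001159953) it was so in 1 of 3 wild-type and 0 of 4 PRA transgenic glands, and Cy3 on no array. Its log2 ratios were 1.52, 0.63 and 1.54 in wild-type and 0.71, -0.07, -0.39 and -0.45 in PRA transgenic glands. Replicate 2 of wild-type lay just below replicate 1 of PRA transgenic, and since the channels were dim no fold change is given. The RefSeq probes thus give no level for Pde1c in either genotype.

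Pde2a, the enzyme that cGMP stimulates, had a single probe with both channels bright (A_55_P2105542, chromosome 7, 108661268 to 108661327). Its log2 ratio was 3.17, 3.76 and 3.11 in wild-type and 3.02, 3.24, 3.27 and 3.70 in PRA transgenic glands. It was about 10.2-fold above the reference in wild-type and did not differ beyond the spread between animals, with a log2 fold change of -0.04 (standard error 0.22). Without the 3 arrays with skeletal muscle markers, wild-type replicates 1 and 3 and PRA transgenic replicate 4, the log2 fold change was -0.59 (standard error 0.21), with an unadjusted p under 0.05 in a fit with 1 wild-type array, which was assumed to vary like the PRA transgenic ones.

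Pde3a, a cGMP-inhibited enzyme known from heart, platelets and smooth muscle, had the lowest unadjusted p of the 22 tested probes. Its 2 tested probes lie near the end of the gene, and the first 30 bases of each are shown because their values differ, 5′ to 3′ as the scanner file lists them.
Pde3a A_55_P2071406: gaagctatttgtgttattttgtttgttttc
Pde3a A_55_P2730626: aagactctagctcaaagaagcttttttcac
For probe A_55_P2071406 (chromosome 6, 141448762 to 141448821, transcript ENSMUST00000043259) the log2 ratio was 3.57, 4.03 and 3.60 in wild-type and 2.39, 2.56, 1.15 and 3.13 in PRA transgenic glands. By this ratio every PRA transgenic gland was below every wild-type gland, and replicate 3 was the lowest. The log2 fold change was -1.43 (standard error 0.44, limma adjusted p = 0.433). At A_55_P2730626 (141447588 to 141447647, transcript NM_018779) the log2 ratio was 2.94, 3.04 and 2.36 in wild-type and 2.58, 2.03, 2.33 and 2.84 in PRA transgenic glands. Here the genotypes overlapped, and the log2 fold change was -0.33 (standard error 0.25).

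The Cy3 reference was well above background for neither of these Pde3a probes on any array, so their ratios have a dim denominator. At A_55_P2071406 Cy5 alone, scaled to the 75th percentile of each array, changed by -0.55 on the log2 scale (standard error 0.20) and Cy3 by 0.89. The 4 PRA transgenic glands lay between -3.21 and -2.61 and the wild-type glands between -2.60 and -2.13 in Cy5, so that the genotypes were just apart in the gland channel too. PRA transgenic replicate 3, lowest in the ratio, was at -3.08 in Cy5, within the range of its group. Its scaled Cy3 was -4.22, against -6.17 to -5.35 on the other arrays. With dim signals of each channel set to 1 common floor on all arrays, the log2 fold change of the ratio was -0.75. Cy3 of this probe then lay at the floor on every array, so this value is that of Cy5 unscaled and is no separate check. In Cy5 unscaled the median of all probes was -0.20. After normexp background correction and loess the log2 fold change of the ratio was -0.52. The unadjusted p stayed under 0.05 in all 21 alternatives in which this probe was tested, and the adjusted p passed in none. At A_55_P2730626 Cy5 changed by 0.29 and Cy3 by 0.63, so that in the gland channel the difference had the opposite sign. The 2 other Pde3a probes were not tested. A_55_P2049373 was well above background in 0 of 3 wild-type and 2 of 4 PRA transgenic glands, and its brightest array, PRA transgenic replicate 3, carried the difference. There scaled Cy5 was -1.70 on the log2 scale, against -5.37 to -4.09 in the other PRA transgenic and -6.89 to -5.14 in the wild-type glands. Cy3 was high on the same array, at -1.95 against -6.50 to -4.86 on the others, and the log2 ratios of the genotypes overlapped. Cy5 of this probe, normalized between arrays, was averaged over the 4 PRA transgenic glands. This mean was 1.80-fold above the dim side, taken at the lowest signal well above background or its own where higher. Only 2 of the 4 glands were well above background, so 1.80-fold is not a lower bound. Without replicate 3 the value was 1.03-fold. A_52_P399863 was above background on no array.

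**Figure D3:**
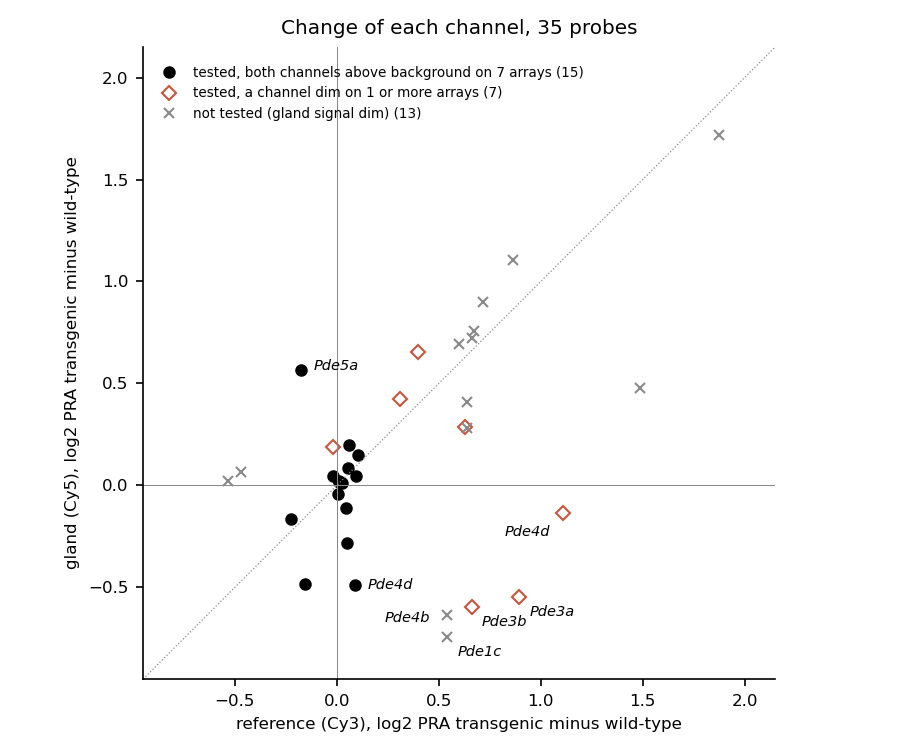
Log2 change, PRA transgenic minus wild-type, of the gland channel (Cy5, vertical) against the reference channel (Cy3, horizontal) for all 35 probes, each channel scaled to its array's 75th percentile. The dotted line marks equal change. The 15 tested probes with both channels bright (filled circles) lie between -0.23 and 0.10 in the reference, the 3 open diamonds below 0, of Pde3a, Pde3b and Pde4d, combine a lower gland signal with a reference change of 0.66 to 1.11, and crosses are the 13 probes that were not tested.

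Pde3b, the adipocyte enzyme that insulin activates, was about 8.71-fold above the reference in wild-type glands by its brightest probe (A_55_P2032538, chromosome 7, 121681370 to 121681429, transcript NM_011055). The log2 ratio was 3.17, 3.30 and 2.90 in wild-type and 3.59, 2.58, 3.13 and 3.25 in PRA transgenic glands. Both the highest and the lowest value came from PRA transgenic glands, replicates 1 and 2, and the log2 fold change was 0.02 (standard error 0.24). The same pair stood at the ends for A_66_P130720, at 4.80 and 1.75, with a log2 fold change of 0.22 (standard error 0.68). Cy3 was well above background for A_66_P130720 on 3 of 7 arrays. In PRA transgenic replicates 1 and 2 its scaled Cy5 was -0.08 and -1.13 and its scaled Cy3 -4.86 and -2.86. The probe nearest the end of the transcript, A_55_P2151591, differed from the other Pde3b probes. Its log2 ratio was 1.90, 1.85 and 2.51 in wild-type and 1.47, -0.74, 1.04 and 1.59 in PRA transgenic glands, with the genotypes apart and a log2 fold change of -1.25 (standard error 0.56, limma adjusted p = 0.579). Cy5 was well above background there in 2 of 4 PRA transgenic glands and Cy3 on no array. In PRA transgenic replicate 2, lowest in the ratio, scaled Cy3 was -3.53, against -6.32 to -5.49 on the other arrays. Its scaled Cy5 was -4.28, within the -4.66 to -4.04 of the other PRA transgenic glands. The probe had passed the filter through Cy5 of the wild-type glands alone, so a lower Cy5 and a lower ratio were favored by its selection. Cy5 alone changed by -0.60 (standard error 0.17) with the genotypes apart, and without PRA transgenic replicate 2 the ratio changed by -0.72. With the common floor it changed by -0.55, and after normexp and loess by -0.16 (standard error 0.16).

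The cAMP-specific Pde4 genes had 17 of the 35 probes, 10 of them tested. Pde4a was below the reference in every gland at its brightest probe (A_55_P2029191, chromosome 9, 21017591 to 21017650). The log2 ratio was -0.9996, -0.77 and -1.05 in wild-type and -0.76, -1.21, -1.17 and -0.49 in PRA transgenic glands, with a log2 fold change of 0.04 (standard error 0.20). The other Pde4a probes gave -0.32 (standard error 0.22) and 0.13 (standard error 0.26), neither with an unadjusted p under 0.05. Pde4b was near the reference at A_65_P01319 (chromosome 4, 102279393 to 102279452), with log2 ratios of 0.12, -0.07 and 0.34 in wild-type and -0.34, 0.51, -0.01 and 0.21 in PRA transgenic glands and a log2 fold change of -0.04 (standard error 0.22). A_52_P423247, upstream in the same transcript, gave -0.32 (standard error 0.38). The other 4 Pde4b probes were dim, 2 of them above background in Cy5 on no array. Of the others, A_55_P2107542 was above background in 2 of 3 wild-type and 0 of 4 PRA transgenic glands, with log2 ratios of 1.66, 1.76 and 1.095 in wild-type and 0.02, 0.39, -0.45 and 1.37 in PRA transgenic glands, and no bound on a fold above 1 could be given. A_55_P2721842 was above background in 0 wild-type and 1 PRA transgenic gland, and Cy3 on 1 of 7 arrays. Its log2 ratios were 0.91, 0.80 and 0.25 in wild-type and -0.59, -0.59, -0.42 and 0.23 in PRA transgenic glands. These ratios were apart, lower in PRA transgenic glands, while Cy5 alone changed by 0.48 and Cy3 by 1.49, both from dim signals, so no fold change is given.

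Pde4d, which codes for many isoforms from alternative starts over a long gene, was read by 8 probes that span 834918 bases of chromosome 13, and they did not move together. The brightest probe and the one with an unadjusted p under 0.05 both lie near the end of the same transcript, NM_011056. At A_51_P120990 (110743427 to 110743486) the log2 ratio was -0.18, 0.26 and 0.47 in wild-type and 0.67, -0.24, -0.22 and -0.07 in PRA transgenic glands. The highest gland was PRA transgenic replicate 1, and the log2 fold change was -0.15 (standard error 0.27). At A_65_P12530 the log2 ratio was -0.05, 0.72 and 0.46 in wild-type and -0.05, -0.18, -0.44 and -0.10 in PRA transgenic glands. Wild-type replicate 1 met the top of the PRA transgenic range and the other wild-type glands were above it. The log2 fold change was -0.57 (standard error 0.21, limma adjusted p = 0.488). Both channels of this probe were bright, Cy5 alone changed by -0.49 and Cy3 by 0.09.

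When 1 array was left out, the unadjusted p of A_65_P12530 did not pass 0.05 without wild-type replicate 2 (log2 fold change -0.40), wild-type replicate 3 (-0.53) or PRA transgenic replicate 3 (-0.49). Of the other tested Pde4d probes, A_55_P2010396 gave 0.15 (standard error 0.19), and A_52_P589745, whose 60 bases map over 17058 bases of genome and so cross a splice junction, gave 0.26 (standard error 0.58). Cy3 was well above background for this junction probe on 1 of 7 arrays. Without the 3 arrays with skeletal muscle markers the probe gave -1.11, in a fit with 1 wild-type array. Its scaled Cy5 was -2.76 in wild-type replicate 2 and -2.80, -3.18 and -1.75 in PRA transgenic replicates 1 to 3. Scaled Cy3 was -4.88 in that wild-type gland and -3.99, -4.45 and -2.28 in those PRA transgenic glands. A_55_P1986461, from the cDNA AK032648, gave -1.24 (standard error 0.68, limma adjusted p = 0.644), with Cy5 changed by -0.13 and Cy3 by 1.11 and Cy3 above background on no array. This probe had passed the filter through the wild-type glands alone, so a lower value was favored by its selection. Without PRA transgenic replicate 2, its highest array at 2.37, it gave -1.77. Of its 20 alternatives this was the only 1 with an unadjusted p under 0.05. With the common floor it gave -0.24. The 3 Pde4d probes not tested were above background in Cy5 in at most 2 wild-type and no PRA transgenic glands.

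Pde5a, the cGMP-specific enzyme that sildenafil inhibits, had the largest positive change of the 22 tested probes. The first 30 bases of its tested probe are shown because the gene's value rests on it alone.
Pde5a A_55_P2042778: gccctccaccaagagaaatgttttacttga
At this probe (chromosome 3, 122558949 to 122559008, transcript NM_153422) the log2 ratio was -0.70, 0.04 and 0.62 in wild-type and 0.89, 0.57, 1.04 and 0.46 in PRA transgenic glands. The PRA transgenic glands were close together, the wild-type glands were spread widely, and wild-type replicate 3 lay inside the PRA transgenic range. The log2 fold change was 0.75 (standard error 0.31, limma adjusted p = 0.542), or 1.68-fold higher. Both channels were bright, and Cy5 alone changed by 0.57 (standard error 0.32). Leaving out wild-type replicate 1, the lowest array, lowered the log2 fold change to 0.41 (standard error 0.25). The unadjusted p also missed 0.05 without wild-type replicate 2 (0.78) and without PRA transgenic replicate 1 (0.70), 2 (0.81) or 3 (0.65). Of the 22 alternatives it passed in 10. Besides the arrays left out, it missed after normexp and loess (0.59), with no filter (0.75), after quantile normalization (0.73), after centering on the median (0.72), by the methods' t-test (0.75), and in Cy5 alone at the 75th percentile (0.57) or unscaled (0.36), these being log2 changes. Wild-type replicate 1 was also the array with T cell and B cell markers, whose means were 1.93 and 1.44 there and at most 0.06 and -0.27 elsewhere, and their part in the Pde5a value was not tested. The other Pde5a probe, A_51_P162017, was above background in Cy5 on no array.

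**Figure D4:**
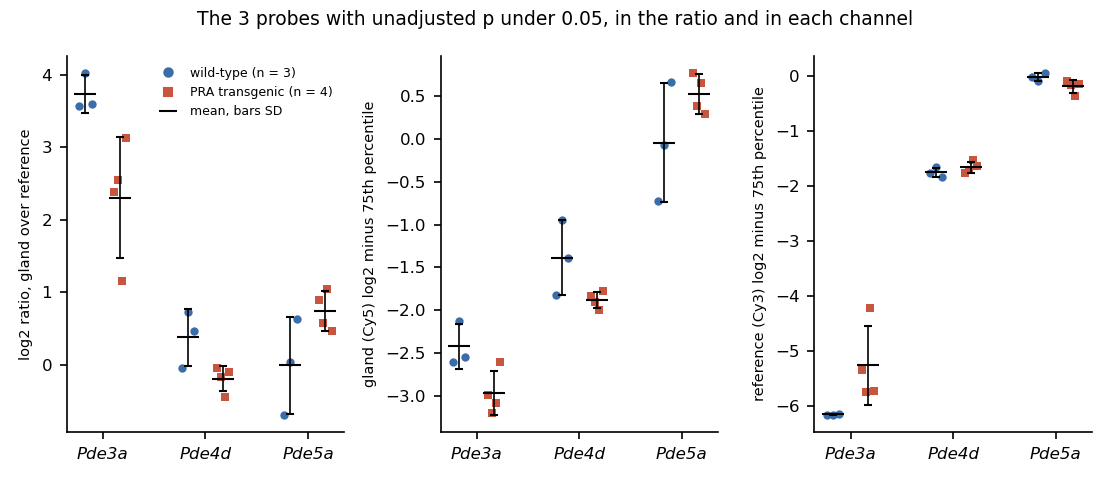
Values by animal for the 3 probes with an unadjusted p under 0.05, of Pde3a (A_55_P2071406), Pde4d (A_65_P12530) and Pde5a (A_55_P2042778), as the log2 ratio (left) and as Cy5 (middle) and Cy3 (right) log2 signal minus the 75th percentile of the array, with mean and SD. In the reference channel the Pde3a probe is the one that shifts, by 0.89, and the Pde4d and Pde5a probes change there by 0.09 and -0.17.

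Other genes of cyclic nucleotide signalling were read from 6 lists of 83 genes, of which 65 had a tested probe. With the brightest tested probe for each gene, 3 were higher and 5 lower in PRA transgenic glands at an unadjusted p under 0.05, or 12.3%, against 7.95% of all 22482 genes. With 1.5-fold added, 2 were higher, where the background was 1.51%, and 2 lower, where it was 2.54%. None had an adjusted p under 0.05, and the lowest was 0.332 (limma with Benjamini-Hochberg adjustment). Among the other phosphodiesterases 10 of 14 genes were tested, with a median log2 fold change of 0.10 against 0.01 over all genes, and Pde11a, which cleaves both messengers, was higher at 0.95 (standard error 0.37). Of the genes for cAMP synthesis 15 of 18 were tested. The adenylyl cyclase Adcy3 was higher, with log2 ratios of 2.30, 1.83 and 2.08 in wild-type and 3.25, 3.01, 3.06 and 2.67 in PRA transgenic glands and a log2 fold change of 0.93 (standard error 0.18). The β1-adrenergic receptor gene Adrb1, whose product raises cAMP, was lower at -0.92 (standard error 0.24), and the inhibitory G protein gene Gnai3 at -0.24 (standard error 0.10).

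Of the genes for cGMP synthesis 9 of 13 were tested, and Gucy1b1, a subunit of the soluble guanylyl cyclase that nitric oxide activates, was lower at -0.65 (standard error 0.21). Of the effectors 17 of 19 were tested. Prkg2, a cGMP-dependent protein kinase, was lower, with log2 ratios from -6.02 to -5.73 in wild-type and from -6.56 to -6.34 in PRA transgenic glands and a log2 fold change of -0.55 (standard error 0.13), and the cAMP-binding membrane protein gene Popdc2 was higher at 0.49 (standard error 0.16). Of the anchoring genes 11 of 16 were tested, and Akap7, which tethers protein kinase A, was lower at -0.57 (standard error 0.21). Pde4dip, the Pde4d-binding scaffold of the Golgi, has 6 probes on the array. The brightest tested one gave -0.03 (standard error 0.11), and the values of the others are not given here. None of the 3 calmodulin genes had an unadjusted p under 0.05. How much of these changes lay in the gland channel differed between genes. Cy5 alone changed by 0.28 for Pde11a, 0.31 for Adcy3, -0.31 for Adrb1, -0.06 for Gucy1b1 and 0.00 for Popdc2, in which Cy3 was well above background on at most 4 of 7 arrays. For Gnai3, Prkg2 and Akap7, with Cy3 above background on all 7, it changed by -0.20, -0.49 and -0.54.

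**Figure D5:**
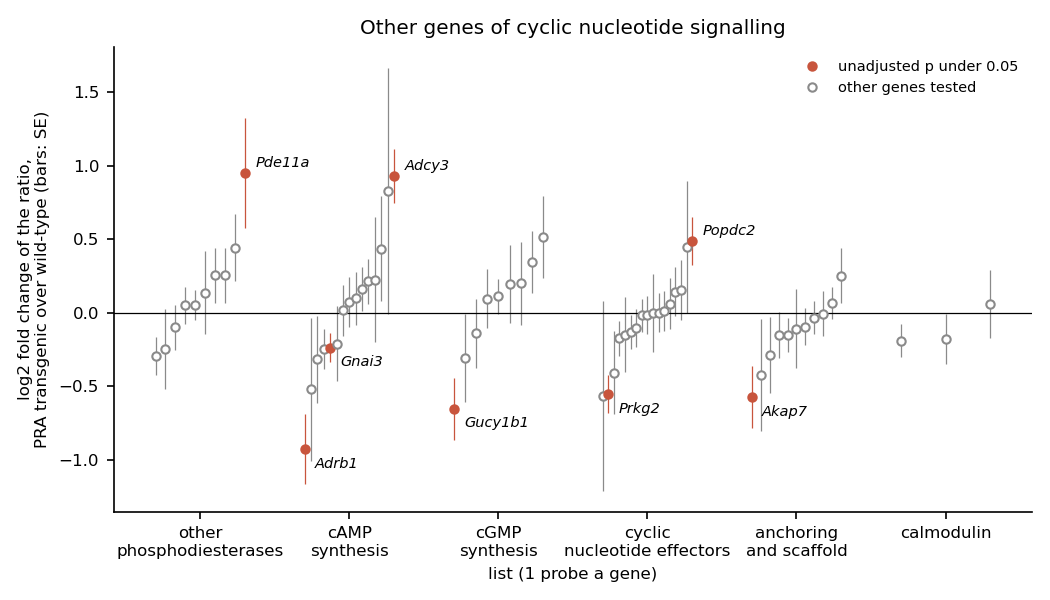
Log2 fold change of the ratio, PRA transgenic over wild-type, with its standard error, for 65 tested genes of cyclic nucleotide signalling in 6 lists, ordered by size within a list. The 8 genes with an unadjusted p under 0.05 are filled and named, 3 above 0 and 5 below, and none has an adjusted p under 0.05.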

How the data were processed

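RNA from 7 mammary glands (3 wild-type, 4 PRA transgenic, grouped by the sample labels, 1 animal each) was hybridized to 2-colour Agilent arrays. For each array the deposited file was written by Agilent Feature Extraction (12.0 in the submitters' processing notes, 11.5.1.1 in the file headers) and holds intensity values that this software had background-subtracted and dye-normalized. A table of log2 values for the series was deposited as well. Of these, 99.9% were within 0.01 of the log2 ratio of the processed intensities centered on each probe's median, so scale and direction are known and the original center is lost. Its use was an alternative.

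Control and outlier spots were left out and spots of a probe were averaged. Log2 ratios of 34284 probes were fitted in limma 3.58.1 (R 4.3.3; lmFit, then eBayes), and p-values were adjusted over all of them after Benjamini and Hochberg. Positions are those of the files (mm9). The sequences of some probes are not reported here. Names of other genes were updated through a RefSeq table of GRCm38.p6, by accession for 32994 probes, by symbol for 10224 and by older symbol for 520, and 12867 kept the file's name. For the bound on a dim probe, Cy5 was taken after quantile normalization of the average intensity between arrays. The dim side was set at the higher of the array's lowest signal well above background and the probe's own. The brighter side was the mean of all its arrays as measured, dim ones included. Named are all members (brightest tested probe), further probes with an unadjusted p under 0.05 or of a member with none tested, listed genes with an unadjusted p under 0.05, and Pde4dip. Other probes were named after their values were seen. The members and lists were chosen with earlier results of these data known. The method was also run on simulated data that took their means and variances from the main fit. There 22 of 100 probes with a log2 change of 1 in size had an adjusted p under 0.05. For a change of 2 in size, 83 of 100 did. Alternatives are given in the closing section. Marker lists covered white and brown adipocytes, skeletal and smooth muscle, endothelium, T cells, B cells, myeloid cells, luminal and basal epithelium, fibroblasts and Schwann cells.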

Additional observations from a re-analysis of the deposited data

Results flagged for a closer look

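In groups of 4 arrays, 1 PRA transgenic array stood apart from the other 3 in 4 list means, of 40 groups examined, where chance at 1 in 20 gives 2. The measure is the gap of that array to its nearest neighbor as a share of the range of the group, for the mean log2 ratio of a list. It was 0.934 for the genes of cAMP synthesis, in which replicate 1 was highest at 2.63 and the others lay between 2.49 and 2.50. It was 0.914 for the skeletal muscle markers, in which replicate 4 was at 2.96 and the others between -0.85 and -0.52, 0.938 for the endothelial markers, in which replicate 2 was lowest at 4.61 and the others between 4.95 and 4.97, and 0.844 for the fibroblast markers, in which replicate 4 was highest at 2.61 and the others between 2.18 and 2.24. None of the 22 tested phosphodiesterase probes, which were among the 40 groups, was set apart in this way.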

How the results depend on the processing

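The count of phosphodiesterase probes with an adjusted p under 0.05 was 0 under every alternative, and the count at an unadjusted p under 0.05, 3 as reported, ran from 1 to 5. The count past an unadjusted p under 0.05 and 1.5-fold, 2 as reported, with 1 higher and 1 lower, was 0 after normexp and loess, 4 with no filter on dim probes (0 higher, 4 lower), 1 with both channels above background on all arrays (1 higher), 1 in Cy5 alone at the 75th percentile (1 lower), 4 in Cy5 unscaled (0 higher, 4 lower), 1 by the methods' t-test (1 lower; 0 after Benjamini-Hochberg adjustment) and 5 without the 3 arrays with skeletal muscle markers (1 higher, 4 lower). The 4 with no filter were Pde3a A_55_P2071406 and the dim probes Pde1c A_55_P1974830, Pde4b A_55_P2107542 and Pde4b A_55_P2721842. These dim probes were not tested in the main fit, and no fold is given for them. After quantile normalization or centering the 2 were both lower. Leaving out 1 array gave 1 to 4, with 1 without wild-type replicate 2 or PRA transgenic replicate 3 and 4 without PRA transgenic replicate 4. The count of 8 genes in the signalling lists was 4 after normexp, 3 with both channels above background, 2 in Cy5 alone at the 75th percentile and 5 with a common floor. Leaving out 1 array gave 5 to 8, with 5 without wild-type replicate 2 or PRA transgenic replicate 2. The cause was not tested, except that the stricter filter tests fewer probes.

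Replicate numbers were shared by the labels but did not pair the arrays (deviations of arrays with the same number correlated at 0.10, -0.30 and 0.04, and not every array correlated best with its own number). Wild-type replicate 3 by its label is number 4 in its scanner file, and its correlation with PRA transgenic replicate 4 was -0.08. With the label's number as a block the counts were 0 by adjusted p, 3 with 1.5-fold (1 higher, 2 lower) and 8 in the lists. Pde3b A_55_P2151591 (-1.50) then passed an unadjusted p under 0.05, and Pde4d A_65_P12530 (-0.60) did not.

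Log2 fold changes near 0 changed sign at the brightest probes of 7 genes. After normexp Pde1b gave -0.0128 and Pde3b -0.0112. In Cy5 alone at the 75th percentile Pde1a gave 0.0128 and Pde4b 0.0444, and in Cy5 unscaled Pde1b gave -0.185, Pde1c -0.0552, Pde3b -0.188 and Pde4a -0.123. Quantile normalization gave 0.146 for Pde1a, -0.0168 for Pde1b and 0.11 for Pde2a, and centering on the median -0.0116 for Pde1b and -0.0173 for Pde3b. Array weights gave -0.0183 for Pde1b, -0.00262 for Pde1c, -0.0626 for Pde3b and -0.0532 for Pde4a. The replicate block gave -0.00356 for Pde1b, -0.0086 for Pde1c, -0.0234 for Pde3b and -0.102 for Pde4a, and the median over probes -0.00781 for Pde3b. Without the muscle arrays Pde1b gave -0.253, Pde1c -0.192, Pde3b -0.204, Pde4a -0.269 and Pde4b 0.118. Leaving out 1 array gave -0.206 to 0.229 for Pde1a, -0.0952 to 0.146 for Pde1b, -0.0565 to 0.149 for Pde1c, -0.172 to 0.166 for Pde2a, -0.135 to 0.201 for Pde3b, -0.102 to 0.138 for Pde4a and -0.179 to 0.102 for Pde4b. Of further probes, Pde3a A_55_P2730626 gave 0.111 after normexp, 0.285 in Cy5 alone at the 75th percentile and 0.0793 both in Cy5 unscaled and with the common floor, and Pde4d A_52_P589745 gave -0.14 with the replicate block, -1.11 without the muscle arrays and -0.189 to 0.75 with 1 array left out. Pde3a A_55_P2071406, Pde3b A_55_P2151591, Pde4d A_51_P120990, A_65_P12530 and A_55_P1986461 and Pde5a A_55_P2042778 kept their direction in every alternative in which they were tested.

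In Cy5 unscaled the median log2 fold change of all probes was -0.20, against 0.02 as reported. Of all probes with an unadjusted p under 0.05, 50.4% were higher as reported, 40.0% after centering and 5.83% in Cy5 unscaled. The muscle arrays and the common floor were chosen after seeing the data. With 1 slide, no block for slide was possible. A dim channel limits the ratios of 7 tested probes.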

Other observations

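The remaining marker lists gave mean log2 ratios that overlapped between the genotypes. Over the 7 arrays they ran from 3.42 to 4.20 for brown adipocytes, 2.41 to 2.87 for vascular smooth muscle and pericytes, 4.61 to 4.97 for endothelium, -0.84 to 1.44 for B cells, 2.12 to 2.88 for macrophages and myeloid cells, 2.50 to 3.59 for luminal epithelium, 2.05 to 2.74 for basal epithelium, 2.18 to 2.78 for fibroblasts and 1.69 to 2.36 for Schwann cells. No marker in these lists had an adjusted p under 0.05.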
